A study of Mus musculus with 4 samples.

Results

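Caecal gene expression of apoE knockout (KO) mice was set against that of wild-type (WT) mice on all 4 arrays of the series, 2 arrays per genotype. For each gene the mean of the KO arrays minus the mean of the WT arrays was taken, and genes were described where both KO arrays lay on one side of both WT arrays. Of 22180 genes with a probe set of their own, 3322 (15%) had both KO arrays above both WT arrays, and 3545 (16%) had both below.

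All mice were C57Bl/6, aged 21 weeks, and were on a diet low in n-3 polyunsaturated fatty acids (n-3 PUFA depleted), so no group here had an ordinary diet. In each genotype 1 group received no supplement and 1 group received prebiotics, Orafti P95, at a daily dose of 250 mg per mouse in the final 15 days. Each array carried pooled RNA of 6 mice that had been picked for the quality of their RNA, so the spread between mice cannot be seen. The KO and WT arrays therefore differ in genotype and, within each genotype, in diet. The title, source and treatment fields of the WT arrays give the opposite diet from the description field; arrays are ordered here by title, and the difference between genotypes does not depend on that order. Unless stated otherwise, paired values are RMA values on the log2 scale, the array titled without prebiotics first.

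Apolipoprotein E is a protein of lipoprotein particles that binds receptors of the LDL receptor family, by which the liver takes up lipoprotein remnants. It is made mainly by hepatocytes and macrophages, and mice that lack it carry high plasma cholesterol and develop atherosclerosis. The caecum is a pouch of the large intestine where bacteria ferment carbohydrates, with an epithelium of colonocytes and goblet cells over a stroma of fibroblasts, immune cells and smooth muscle.

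Markers of epithelium and of colonocytes were high on all arrays, while those of pancreas and skeletal muscle were low. Epcam, an adhesion protein of epithelia, had 10.31 and 10.24 on the WT arrays and 10.10 and 10.33 on the KO arrays, and Car1, the carbonic anhydrase of colonocytes, lay between 12.34 and 12.52. The 8 measured markers of pancreatic acinar cells had means of 2.87 to 2.88, and the 8 of skeletal muscle 2.82 to 2.90, both at the level of the array medians (2.92 to 2.93). These markers do not tell the caecum from neighbouring gut, and whether each array held caecum alone was not tested. The KO prebiotic array stood apart in the alpha-defensin genes. Defa21 had 3.37 and 2.98 in WT and 3.08 and 8.18 in KO. Defa22 and Defa24 reached 7.87 and 6.21 on that array. A value of 3.0, the median of the probe sets with 1 gene name, is used here as the mark of background, and 13081 genes reached it on at least 1 array. Among these, 2101 (16.1%) lay higher on both KO arrays and 1849 (14.1%) lower.

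Over the genome, how far the genotypes stood apart beside the diets depended on the doubted WT titles. The SD of the log2 difference over the 13081 genes was 0.238 between the KO and WT arrays without prebiotics and 0.238 between those with prebiotics, as titled. With the WT pair exchanged, as the descriptions have it, these values were 0.266 and 0.297. It was 0.265 within the WT pair and 0.279 within the KO pair. In limma, with 2 residual degrees of freedom, no gene passed an adjusted p of 0.05: 0 were called higher (0%) and 0 lower (0%), while 429 had an unadjusted p under 0.05 and the smallest adjusted p was 0.17. For a single gene, 2 arrays against 2 allow no two-sided exact permutation p below 0.333. Arrays in random order would separate a gene, higher or lower, with that same probability. The shares of separated genes given above do not exceed it, so a separation alone does not show a genotype difference. "Higher" and "lower" below therefore describe where the arrays lay, not a called change.

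The size of a separation was measured by its gap, the smallest of the 4 differences between a KO array and a WT array. A gap of 0.25 log2 units or more was called wide. It was reached by 139 (0.627%) of all genes on the higher side and 102 (0.46%) on the lower side, or 129 (0.986%) and 92 (0.703%) of the genes past the background mark. Plac9a stood just under this threshold and Selenon just over it on the higher side, both with a gap that rounds to 0.25. On the lower side Shcbp1 stood just outside and Dclre1a just inside, with gaps of -0.25 and -0.251. Of the wide gaps, 20 higher and 27 lower genes had an array below 3.0, where RMA compresses differences. With the genes split into 3 equal groups by mean level, wide gaps took 1.28% of the low group, 2.48% of the middle group and 1.31% of the high group.

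Apoe, the gene knocked out, was lower on both KO arrays. Its values were 3.90 and 4.09 in WT and 2.83 and 3.13 in KO, a difference of -1.02 (SE 0.16, limma adjusted p = 0.78). The KO array without prebiotics lay below the background mark and the other KO array just above it, and Apoe was low on the WT arrays too. The sources used here do not say whether the probes fall in the part that was deleted.

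**Figure D1:**
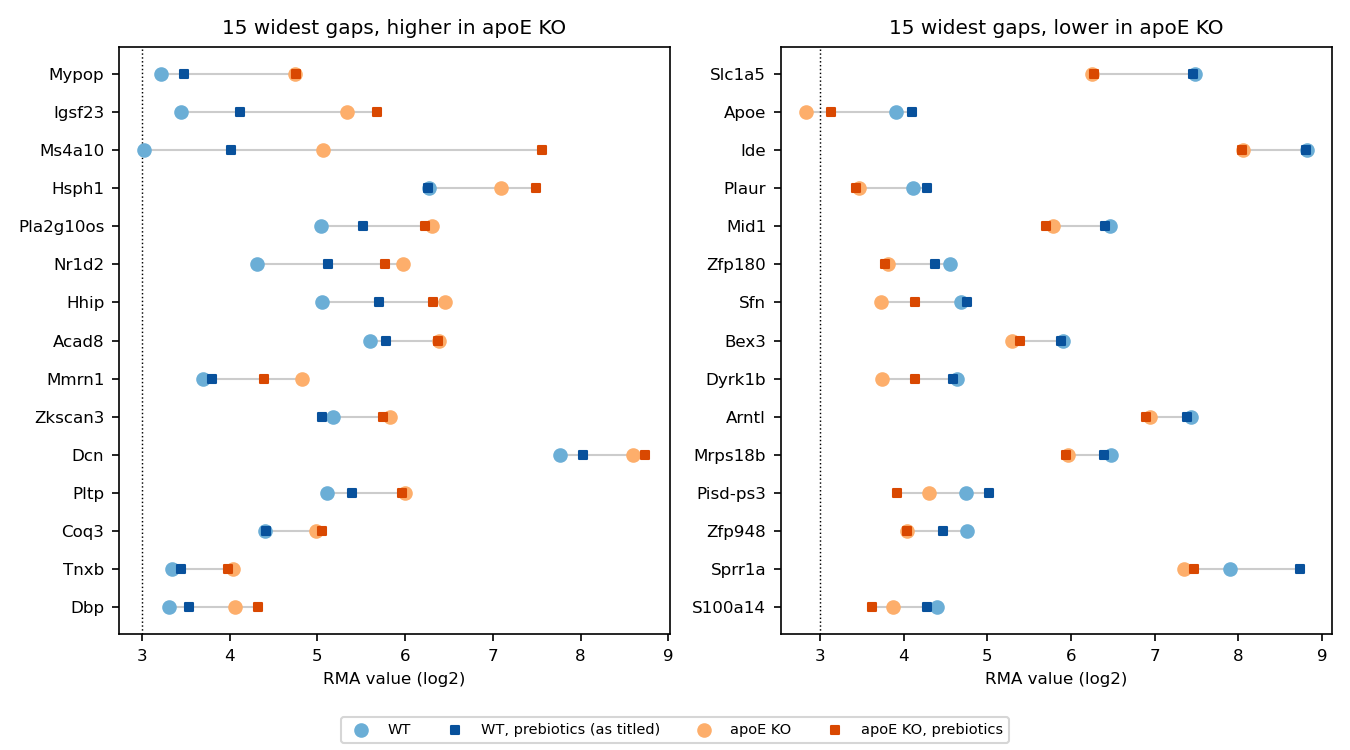
RMA values (log2) on each array for the 15 named genes with the widest gap on each side. Circles are arrays titled without prebiotics and squares those with, blue for WT and orange for apoE KO, and the dotted line marks 3.0; in every row the orange marks lie on one side of the blue marks, with a gap of 1.27 for Mypop and -1.18 for Slc1a5.

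On the higher side the widest gaps belonged to a transcription factor, a pair of membrane proteins and a chaperone. Mypop, a Myb-related transcription factor, had 3.22 and 3.48 in WT and 4.74 and 4.76 in KO, a difference of 1.40 (SE 0.15, limma adjusted p = 0.17). Another of the 3 probe sets for Mypop also separated upward, but close to background (2.85 and 2.95 against 3.20 and 3.17, difference 0.29). The last differed by -0.23 and overlapped between genotypes. Igsf23, a membrane protein of the immunoglobulin superfamily, had 3.44 and 4.11 against 5.34 and 5.68, a difference of 1.73 (SE 0.24, adjusted p = 0.66). Ms4a10, of the family of membrane proteins that includes CD20, had 3.02 and 4.01 against 5.07 and 7.55. Its difference of 2.80 (SE 0.72, adjusted p = 1.0) was the largest of any gene past the background mark, and the KO arrays themselves stood further apart than the nearest KO and WT arrays. Without the KO prebiotic array it was 1.55.

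The gap of these 3 genes was over 1 unit, as was that of 1 gene on the lower side. Slc1a5, the ASCT2 carrier that brings glutamine and other neutral amino acids into cells, had 7.48 and 7.46 in WT and 6.26 and 6.28 in KO. The difference of -1.20 (SE 0.13, limma adjusted p = 0.17) came from arrays that lay close together within each genotype. The other probe set of Slc1a5 lay at background on all arrays (2.81 and 2.81 against 2.87 and 2.99).

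Other wide gaps on the higher side belonged to genes of varied roles. Acad8, the isobutyryl-CoA dehydrogenase of valine breakdown, had 5.60 and 5.78 against 6.39 and 6.37 (difference 0.69). Coq3, a methyltransferase of ubiquinone synthesis, had 4.40 and 4.41 against 4.98 and 5.05 (difference 0.61). Pltp, the phospholipid transfer protein that remodels lipoproteins and is a target of the liver X receptors, had 5.11 and 5.39 against 6.0 and 5.96 (difference 0.73). In each of these 3 genes the gap between genotypes was wider than the difference within either. Tnxb, the matrix protein tenascin X, had 3.34 and 3.45 against 4.03 and 3.98. Zkscan3, a zinc finger factor, had 5.17 and 5.05 against 5.83 and 5.75. Pla2g10os, a transcript named for the opposite strand of Pla2g10, had 5.04 and 5.52 against 6.30 and 6.23, and whether its probes also read the sense gene is uncertain.

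The lower side was as varied. Ide, the insulin-degrading protease, had 8.82 and 8.81 in WT and 8.06 and 8.05 in KO, a difference of -0.76 (SE 0.11, limma adjusted p = 0.68). Plaur, the urokinase receptor, had 4.12 and 4.28 against 3.47 and 3.43 (difference -0.75). Mid1, a microtubule-bound ubiquitin ligase encoded on chromosome X, had 6.47 and 6.41 against 5.79 and 5.70 (difference -0.69), while its other probe set lay at background. For Ide and Mid1 the arrays of a genotype lay close together. Mrps18b, of the small mitochondrial ribosomal subunit, had 6.48 and 6.40 against 5.96 and 5.95, but its other probe set differed by 0.07. Bex3 had 5.91 and 5.88 against 5.30 and 5.39, and Zfp948 4.75 and 4.47 against 4.04 and 4.04. The transcribed pseudogene Pisd-ps3 differed by -0.77. Of the 15 genes, Slc1a5, Apoe, Plaur, Zfp180, Dyrk1b and Arntl lie on chromosome 7.

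Genes near Apoe on chromosome 7 held a larger share of wide gaps than the rest of the genome. In the order of genes past the background mark, the 20 on each side and Apoe itself (41 genes) held 6 higher and 15 lower separated genes, and 4 wide gaps (9.76%). Among 101 genes within 50 places, 9 had a wide gap (8.91%), and among 201 within 100 places, 12 (5.97%). The rest of the chromosome had 2.23% of 806 genes and all other chromosomes 1.57% of 12013. In the innermost 41 genes the lower side made up 36.6%, against 14.6% on the higher side.

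**Figure D2:**
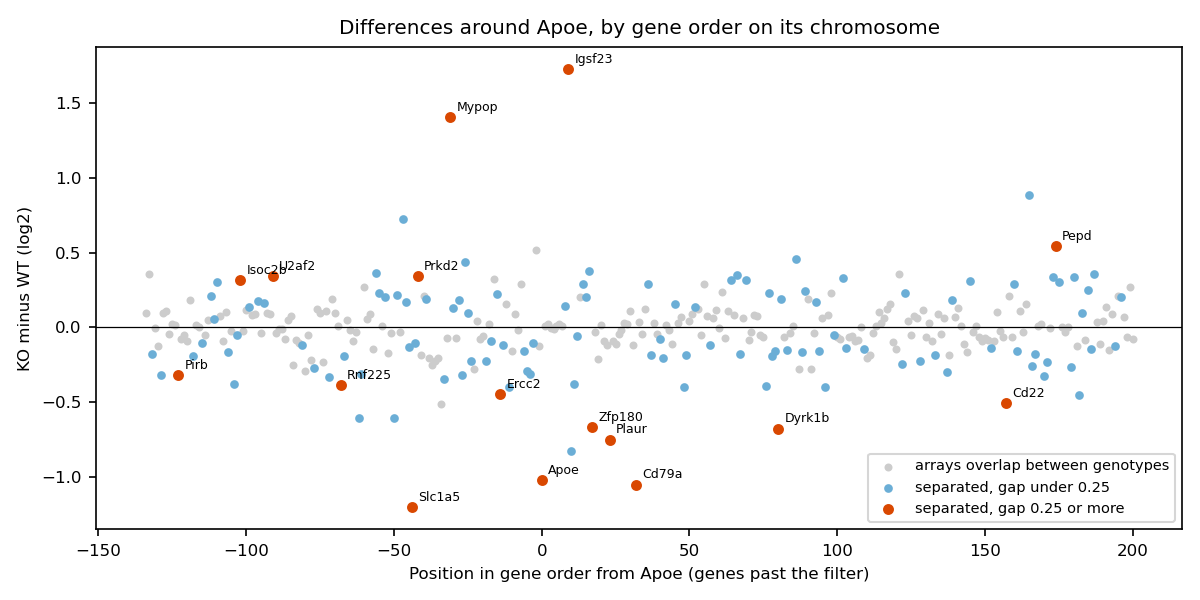
KO minus WT (log2) of genes past the background mark, placed by their order along the chromosome from Apoe at 0. Orange marks are wide gaps and carry names, blue marks narrower separations and grey marks genes whose arrays overlapped between genotypes; Igsf23 (1.73) and Mypop (1.40) lie above and Slc1a5 (-1.20) below, within 50 places of Apoe.

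The neighbours went both ways. Igsf23 lies 9 places from Apoe and Zfp180, a zinc finger gene, 17 places, with 4.55 and 4.37 in WT and 3.81 and 3.78 in KO. Ercc2, a helicase of nucleotide excision repair and of general transcription factor TFIIH, lies 14 places to the other side and had 3.93 and 3.90 against 3.54 and 3.40. Plaur lies 23 places away, Mypop 31, Cd79a 32 and Slc1a5 44. Ceacam20, a colonocyte adhesion protein 10 places from Apoe, had 7.13 and 7.88 against 6.39 and 6.97, a difference of -0.83 with a gap of only -0.16. Farther out, Dyrk1b, a kinase, lies 80 places from Apoe and had 4.64 and 4.59 against 3.74 and 4.13. The origin of the chromosome segment around Apoe in the KO mice is not given in the sources used here, and its part in these values was not tested.

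A fit in limma that also took up diet as titled, which leaves 1 residual degree of freedom, called 8 genes higher (0.0612%) and 4 lower (0.0306%). The higher genes were Igsf23 (adjusted p = 0.011), Ms4a10 (0.014), Mypop (0.014), Hspa1a (0.024), Dcn (0.025), Slc9a3 (0.026), Cnn1 (0.028) and Hsph1 (0.034). The lower genes were Slc1a5 (adjusted p = 0.012), Ide (0.024), Apoe (0.041) and Ceacam20 (0.041). Of these 12 genes, 5 lie on chromosome 7, and the arrays of Hspa1a overlapped between genotypes. Slc9a3, the apical sodium-proton exchanger of absorptive cells, had 8.07 and 8.63 in WT and 8.82 and 9.27 in KO. These calls rest on the titles of the WT arrays: with the WT pair exchanged, as the descriptions have it, limma called 0 and 0, with 246 genes at an unadjusted p under 0.05.

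Clock genes separated on both sides. The circadian clock of each cell runs on a loop in which BMAL1 (Arntl) with CLOCK or NPAS2 binds E-boxes and drives the PER and CRY repressors, the REV-ERB receptors (Nr1d1, Nr1d2) and DBP. The REV-ERB receptors in turn repress Arntl, Npas2 and Nfil3 through ROR elements, so the groups peak at different times of day. Of 18 measured clock genes, 9 lay higher on both KO arrays and 5 lower, with 3 wide gaps on each side; over all genes the shares were 15% and 16%. The sources used here do not give the time of day at which tissue was taken.

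**Figure D3:**
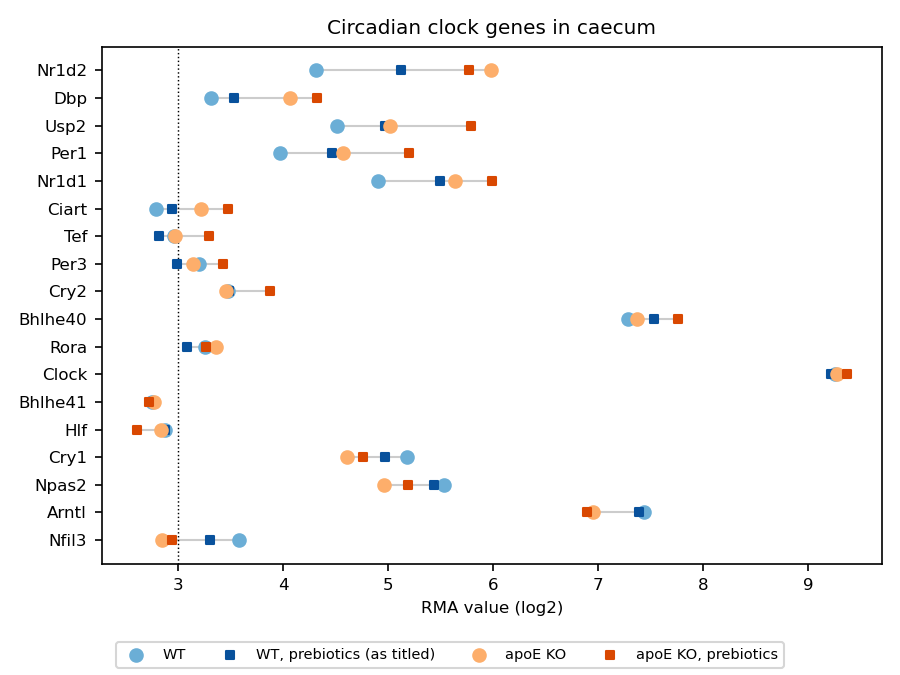
RMA values (log2) of the 18 measured clock genes on each array, ordered by KO minus WT. Symbols and the dotted line at 3.0 are as in the plot of the widest gaps; Nr1d2 and Dbp lie to the right in KO, and Arntl, Npas2, Cry1 and Nfil3 to the left.

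The 250 bases before the start of transcription were read for the 10 clock genes with the largest separated differences (RefSeq, GRCm38.p6), and those with a match are shown because they carry the elements by which the loop is wired. The E-box CACGTG was found in 3 of the 10 genes, Ciart, Per1 (1 of its 2 windows) and Cry1. Over all genes it was found in 6.02% of 32851 such windows. These belong to 27025 genes, so that share is by window and not by gene. The ROR element TAGGTCA, on either strand, was found in Nfil3 and in 2.23% of all windows, and the D-box TTATGTAA in none of the 10 and in 0.819% of all windows. Capitals mark the matches, and no match says only that these letters are not in this window. The windows lie at chr3:95882229-95882478, minus strand (Ciart), chr11:69098699-69098948, plus strand (Per1, the first of 2 windows), chr10:85185055-85185304, minus strand (Cry1) and chr13:52981040-52981289, minus strand (Nfil3).
Ciart: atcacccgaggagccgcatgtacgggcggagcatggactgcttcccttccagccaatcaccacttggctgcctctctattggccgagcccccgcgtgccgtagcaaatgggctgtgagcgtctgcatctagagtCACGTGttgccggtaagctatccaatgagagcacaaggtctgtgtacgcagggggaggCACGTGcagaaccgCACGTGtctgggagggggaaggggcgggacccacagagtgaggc
Per1: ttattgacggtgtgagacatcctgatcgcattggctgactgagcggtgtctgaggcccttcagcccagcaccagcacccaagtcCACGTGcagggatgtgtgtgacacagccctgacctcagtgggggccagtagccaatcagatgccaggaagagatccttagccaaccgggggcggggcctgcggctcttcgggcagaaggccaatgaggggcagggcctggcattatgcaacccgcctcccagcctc
Cry1: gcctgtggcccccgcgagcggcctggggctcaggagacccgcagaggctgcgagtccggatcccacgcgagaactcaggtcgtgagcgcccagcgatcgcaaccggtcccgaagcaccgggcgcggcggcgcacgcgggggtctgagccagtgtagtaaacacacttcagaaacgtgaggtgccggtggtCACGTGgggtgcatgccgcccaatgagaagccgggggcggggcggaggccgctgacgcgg
Nfil3: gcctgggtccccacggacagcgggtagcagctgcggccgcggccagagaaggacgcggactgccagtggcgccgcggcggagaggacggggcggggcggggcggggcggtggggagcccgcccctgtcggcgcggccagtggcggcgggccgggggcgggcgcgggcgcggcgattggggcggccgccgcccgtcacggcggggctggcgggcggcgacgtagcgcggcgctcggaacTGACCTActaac

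Among these 4, the genes with an E-box did not lie on the same side. Ciart, a repressor in the loop with 3 E-boxes in its window, had 2.79 and 2.94 in WT and 3.22 and 3.47 in KO, a difference of 0.48 close to background. Per1 had 3.96 and 4.47 against 4.57 and 5.19, a difference of 0.67 with a narrow gap of 0.10. Cry1 went the other way, with 5.18 and 4.97 against 4.61 and 4.76 (difference -0.39).

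Nr1d2 was the clock gene that differed most, with 4.31 and 5.12 in WT and 5.97 and 5.77 in KO, a difference of 1.15 (SE 0.26, limma adjusted p = 1.0). Its partner Nr1d1 had 4.90 and 5.49 against 5.63 and 5.98, a difference of 0.61. Dbp, an output factor of the clock, had 3.31 and 3.53 against 4.06 and 4.32, a difference of 0.77. For all 3 genes both WT arrays lay below both KO arrays, though the WT arrays of Nr1d2 and Nr1d1 stood further apart than the gaps of 0.64 and 0.14. Usp2, a rhythmic ubiquitin protease, had 4.51 and 4.97 against 5.02 and 5.79. Arntl had 7.44 and 7.39 against 6.95 and 6.90, a difference of -0.49 with little spread within genotypes. Npas2 had 5.53 and 5.44 against 4.96 and 5.19 (difference -0.41). Nfil3, a repressor that competes with DBP, had 3.58 and 3.30 against 2.84 and 2.94 (difference -0.55), with the KO values at background. Clock itself (9.25 and 9.21 against 9.27 and 9.37), Cry2, Per3 and Bhlhe40 differed little or overlapped. Dbp and Arntl are on chromosome 7 but 274 and 581 places from Apoe. Without those genes the median of the list was the same, 0.17, against -0.001 over all genes. Without the KO prebiotic array it was 0.04, and without the other KO array 0.34.

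Markers of the stroma were mostly higher in KO where they separated. Decorin, periostin, dermatopontin and fibronectin are secreted by fibroblasts into the matrix. Of 17 measured genes of the fibroblast list, 9 lay higher on both KO arrays (15% of all genes did) and 0 lower, with a median difference of 0.26 against -0.001 over all genes. The median was 0.14 without the WT array titled without prebiotics and 0.41 without the other WT array. In whole tissue, more cells of a type and more RNA per cell cannot be told apart.

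Decorin (Dcn), a proteoglycan that binds collagen fibrils, had 7.77 and 8.03 in WT and 8.60 and 8.73 in KO, a difference of 0.77 (SE 0.14, limma adjusted p = 1.0). Periostin (Postn) had 8.54 and 8.69 against 9.16 and 9.18 (difference 0.55). Dermatopontin (Dpt) had 7.44 and 7.28 against 8.08 and 7.86 (difference 0.61). In each of these 3 genes the genotypes stood further apart than the arrays within a genotype. Fibronectin (Fn1) had 7.79 and 8.07 against 8.23 and 8.79, a difference of 0.58 with a gap of 0.16. Fbln1, the matrix protein fibulin 1, had 3.22 and 3.31 against 3.70 and 3.55 (difference 0.36). The fibrillar collagen genes varied more with the array than with the genotype. Col1a1 had 6.02 and 7.32 against 6.39 and 7.48, and Col1a2 5.63 and 6.44 against 6.32 and 6.70. Both overlapped between genotypes. Pdgfra, a receptor on most gut fibroblasts, had 7.90 and 7.75 against 8.24 and 7.54 and did not separate.

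**Figure D4:**
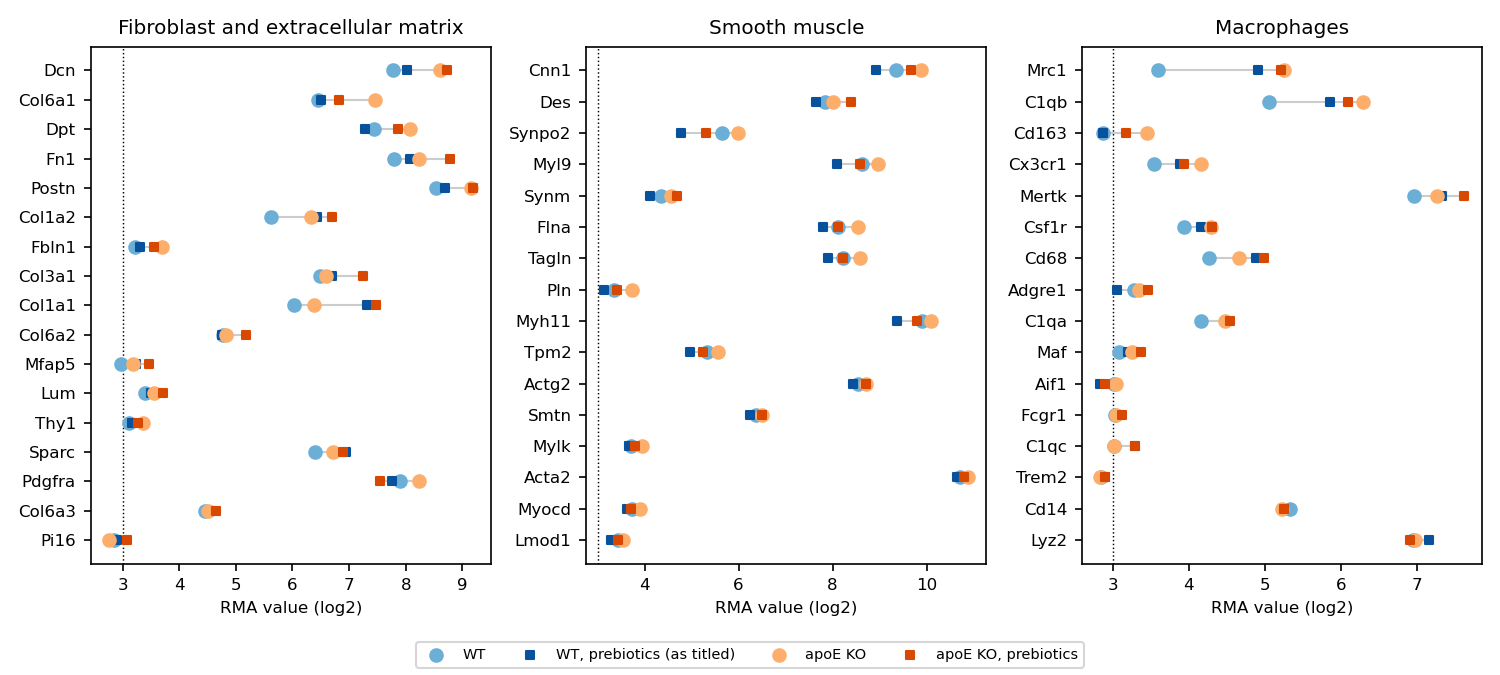
RMA values (log2) on each array for the measured members of the fibroblast, smooth muscle and macrophage lists, ordered by KO minus WT. Symbols and the dotted line at 3.0 are as in the plot of the widest gaps. Rows such as Dcn, Cnn1 and Cd163 show both KO arrays to the right of both WT arrays. Rows such as Col1a1, Pdgfra and Synpo2 show them mixed.

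Among 26 collagen genes, 6 lay higher and 4 lower, where 15% and 16% of all genes did. Their median of 0.04 was -0.02 without the WT array titled without prebiotics and 0.09 without the WT array titled with prebiotics. Col6a1, a chain of beaded filaments around cells, had 6.45 and 6.51 against 7.45 and 6.81 (difference 0.65), and its other probe set lay at background. Col14a1, a collagen on the surface of fibrils, had 3.47 and 3.36 against 3.92 and 4.14 (difference 0.61). The lower members, Col6a6, Col12a1, Col4a3 and Col7a1, differed by -0.05 to -0.18.

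Smooth muscle genes had the highest median of the lists described, 0.32 over 16 genes. Of these, 9 lay higher and 0 lower (15% and 16% of all genes). Calponin (Cnn1), which binds actin in contractile cells, had 9.34 and 8.91 in WT and 9.88 and 9.66 in KO, a difference of 0.64. Desmin (Des), the muscle intermediate filament, had 7.83 and 7.64 against 8.02 and 8.38 (difference 0.47), and synemin (Synm), its partner, 4.36 and 4.12 against 4.56 and 4.68 (difference 0.39). All 16 members had a positive difference, but most gaps were narrow. Actg2, the enteric smooth muscle actin, had 8.53 and 8.43 against 8.72 and 8.72. Myh11, the smooth muscle myosin heavy chain, had 9.90 and 9.38 against 10.10 and 9.79 and overlapped, as did Myl9, Flna and Synpo2. In each genotype the array with prebiotics, as titled, was the lower for Myh11, Myl9, Flna and Synpo2. The median over the list was 0.03 between the nearest KO and WT arrays and 0.51 between the farthest. It fell to 0.16 both without the WT array titled with prebiotics and without the KO array without prebiotics.

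Cells that lie beside smooth muscle and vessels gave like values. Over all genes 15% lay higher and 16% lower. Of 6 pericyte markers 3 lay higher and 0 lower, with a median of 0.25, or 0.09 without the KO array without prebiotics. Kcnj8, a potassium channel subunit, had 4.55 and 4.33 against 5.11 and 4.69. Cspg4 and Notch3 overlapped between genotypes, with differences of -0.065 and -0.078. Of 5 markers of interstitial cells of Cajal, the pacemakers of the gut, 2 lay higher and 0 lower (median 0.22, or 0.06 without the same array), among them Kit with 4.93 and 4.71 against 5.03 and 5.04. Lymphatic endothelium had 4 of 6 higher and 0 lower. Lyve1, a hyaluronan receptor, had 5.43 and 5.41 against 5.95 and 5.87. Mmrn1, multimerin 1, had 3.70 and 3.80 against 4.83 and 4.39. Of the other higher members, Reln had a gap of only 0.004. Prox1, the factor that defines lymphatic cells, stayed under 3.0 on all 4 arrays. Flt4 and Pdpn overlapped, with differences of 0.012 and -0.065. Markers of blood endothelium had a median of -0.01 (2 of 14 higher, 1 lower), enteric neurons 0.07 (3 of 12 higher, 1 lower) and enteric glia 0.01 (0 of 7 higher, 1 lower).

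**Figure D5:**
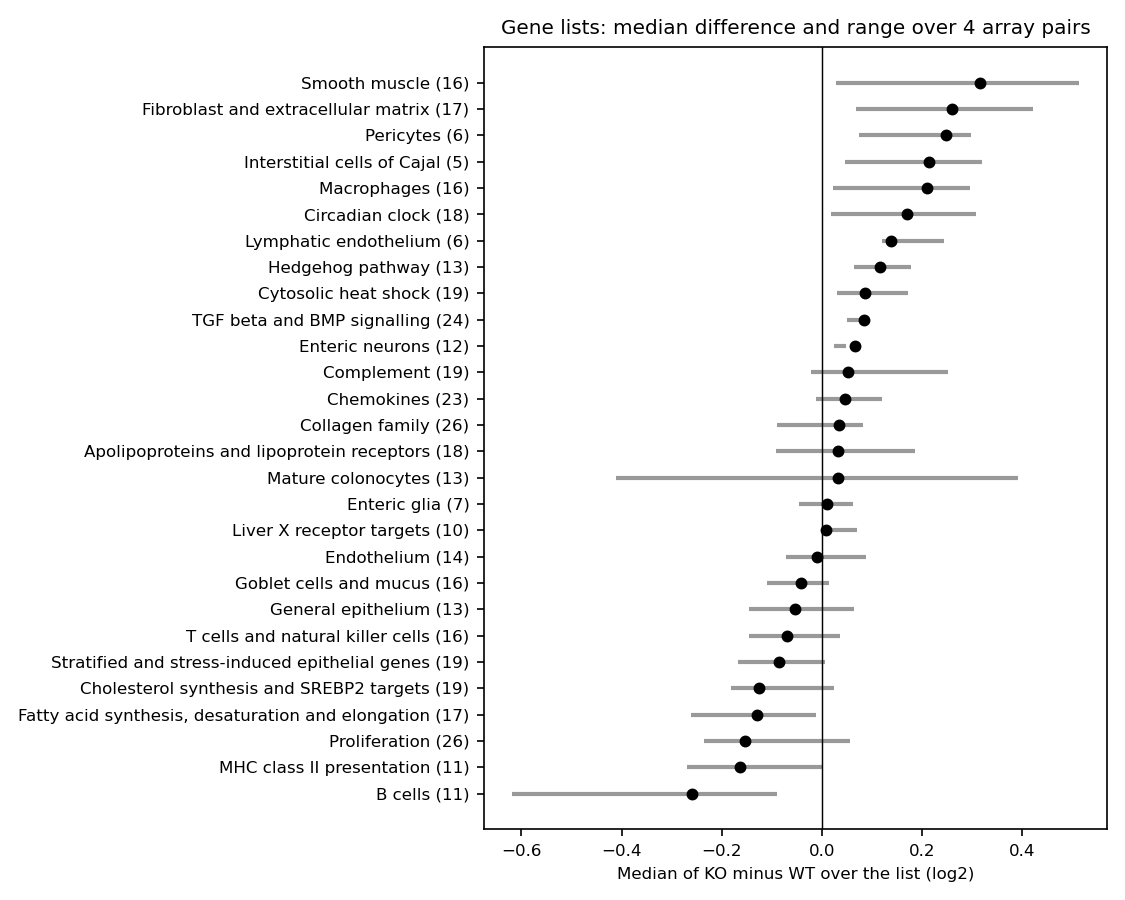
Median over each gene list of KO minus WT (log2), with the number of measured genes in brackets. Points are the medians of the difference between genotype means and bars run from the lowest to the highest median over the 4 pairs of a KO and a WT array, so that a point can fall outside its bar; smooth muscle (0.32) is at the top and B cells (-0.26) at the bottom, and the bar of mature colonocytes is the widest, from -0.41 to 0.39.

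The macrophage list had a median of 0.21, with 7 of 16 genes higher and 1 lower (15% and 16% of all genes). It was 0.11 without the WT array titled without prebiotics and 0.12 without the KO prebiotic array. Mrc1, the mannose receptor of tissue macrophages, had 3.59 and 4.91 in WT and 5.26 and 5.21 in KO, a difference of 0.99 with a gap of 0.30. C1qb, a chain of complement C1q that gut macrophages secrete, had 5.06 and 5.85 against 6.29 and 6.10 (difference 0.74). In both genes the WT array titled without prebiotics was the one that stood far below the others, and without it the differences were 0.325 and 0.34. Cd163, a scavenger receptor, was at background in WT (2.87 and 2.87) and had 3.45 and 3.17 in KO. Csf1r, the receptor for the macrophage growth factor, had 3.93 and 4.17 against 4.29 and 4.30, and Cx3cr1 3.54 and 3.89 against 4.16 and 3.94. C1qa (4.15 and 4.48 against 4.47 and 4.54) and Cd68 (4.26 and 4.88 against 4.65 and 4.99) overlapped. The lower member, Cd14, differed by -0.06, and Lyz2 by -0.11 with overlap.

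Genes of signals that act on stromal cells lay on both sides. The counts below stand beside 15% of all genes higher and 16% lower. Of 13 hedgehog pathway genes 6 lay higher and 3 lower, with a median of 0.12. The 3 lower members, Shh, Gli2 and Foxl1, stayed below 3.0 on every array, as did Gas1 among the higher. Hhip, which binds hedgehog ligands and is itself induced by them, had 5.05 and 5.70 in WT and 6.45 and 6.32 in KO, a difference of 1.01 (SE 0.22, limma adjusted p = 1.0). The ligand Ihh (6.26 and 6.30 against 6.19 and 6.72) and the receptor Ptch1 (5.95 and 5.92 against 6.14 and 5.75), also a hedgehog target, overlapped. Gli1, another target, was near background at 2.78 and 2.85 against 3.04 and 2.97. Of 24 genes of TGF beta and BMP signalling, 9 lay higher and 3 lower, with differences from -0.25 (Ccn2, whose other probe set had 0.14) to 0.28 (Bmp4), a median of 0.08 and no wide gap. Of 23 chemokines 7 lay higher and 3 lower; the eosinophil attractant Ccl11 had 4.65 and 4.74 against 5.34 and 5.22 (difference 0.59), the only wide gap of the list. Of 19 complement genes 5 lay higher and 3 lower, among the latter C1s1 (3.18 and 3.07 against 2.69 and 2.67), whose other probe set differed by -0.05.

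Heat shock genes had 4 of 19 members higher (15% of all genes did) and 0 lower. Their median was 0.09, 0.03 without the WT array titled with prebiotics and 0.15 without the other WT array. These chaperones are induced by heat shock factor when proteins unfold. Hsph1, a nucleotide exchange factor of HSP70, had 6.27 and 6.26 in WT and 7.09 and 7.5 in KO, a difference of 1.03 (SE 0.17, limma adjusted p = 0.86). The bases before the Hsph1 start and those of the HSP70 pair Hspa1a and Hspa1b are shown, the latter because they are near-identical copies. Of 250 bases they share 247, and their transcripts are alike too, so that the probe sets may not tell them apart. Capitals mark a pair of facing heat shock units (GAANNTTC or TTCNNGAA), found in 12.8% of all windows. They lie at chr5:149636337-149636586, minus strand (the first of 2 windows), chr17:34972157-34972406, minus strand and chr17:34959239-34959488, minus strand, in GRCm38.p6.
Hsph1: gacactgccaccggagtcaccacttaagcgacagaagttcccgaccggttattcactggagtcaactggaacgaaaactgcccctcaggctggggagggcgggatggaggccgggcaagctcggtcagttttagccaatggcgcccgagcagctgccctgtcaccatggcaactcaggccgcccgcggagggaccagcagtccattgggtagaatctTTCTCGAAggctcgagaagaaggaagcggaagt
Hspa1a: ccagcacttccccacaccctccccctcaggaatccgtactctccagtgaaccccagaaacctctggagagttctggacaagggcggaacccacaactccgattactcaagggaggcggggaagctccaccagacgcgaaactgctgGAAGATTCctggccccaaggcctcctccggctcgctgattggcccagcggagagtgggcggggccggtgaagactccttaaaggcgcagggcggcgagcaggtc
Hspa1b: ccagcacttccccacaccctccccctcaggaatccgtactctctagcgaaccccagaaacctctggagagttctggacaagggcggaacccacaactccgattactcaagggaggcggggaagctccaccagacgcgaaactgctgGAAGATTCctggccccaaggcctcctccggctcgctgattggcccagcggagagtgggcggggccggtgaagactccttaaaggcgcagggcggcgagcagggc

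Chordc1, a cochaperone of HSP90, had 5.78 and 5.92 in WT and 6.23 and 6.61 in KO, and Hspa4l, a relative of Hsph1, had 5.77 and 5.75 against 6.06 and 6.17. Neither had a match in its window. Hspa8, the constant HSP70, had 10.88 and 11.03 against 11.13 and 11.27, and its other 3 probe sets differed by 0.31 to 0.59. Hspa1a had 4.07 and 5.52 against 5.25 and 7.44, and Hspa1b 5.16 and 6.64 against 5.77 and 8.78, larger differences (1.55 and 1.37) that overlapped between genotypes. Dnajb1, Hsp90aa1 and Hspd1 overlapped with differences between -0.04 and -0.01.

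B cell markers had lower means in KO, chiefly through the array with prebiotics. Of 11 measured genes 5 lay lower and 0 higher (16% and 15% of all genes), with a median of -0.26. The mean of the list was 3.51 and 3.46 in WT and 3.38 and 2.88 in KO. Cd79a, a signalling chain of the B cell receptor, had 4.81 and 4.97 against 4.52 and 3.16, a difference of -1.05. Cd22, an inhibitory coreceptor, had 3.80 and 3.57 against 3.27 and 3.10 (difference -0.51), and the tetraspanin Cd37 had 4.57 and 4.18 against 4.0 and 3.36 (difference -0.70). These 3 genes lie on chromosome 7. Without them 2 of 8 lay lower, with a median of -0.19. The mean of those 8 was 3.18 and 3.16 in WT and 3.18 and 2.75 in KO, so only the KO prebiotic array was lower. Of the 2, Fcrla stayed under 3.0 on all 4 arrays (2.83 and 2.82 against 2.73 and 2.70). Ms4a1 (CD20) had 3.54 and 3.43 against 3.39 and 2.78, a gap of -0.04, while Cd79b (3.40 and 3.45 against 3.66 and 2.47) and Pax5 overlapped. Without the KO prebiotic array the median of the B cell list was -0.09 and the difference of Cd79a -0.37; without the other KO array they were -0.47 and -1.73.

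B cells share the genes that present antigen on MHC class II with macrophages and dendritic cells. Of 11 such genes 4 lay lower and 0 higher (16% and 15% of all genes). Their median of -0.16 was -0.01 without the WT array titled with prebiotics and -0.045 without the KO prebiotic array. H2-DMb2, a subunit of the peptide editor, had 4.20 and 4.04 in WT and 3.77 and 3.42 in KO. The classical chains H2-Aa (6.52 and 6.53 against 6.76 and 6.26) and H2-Ab1 (8.22 and 8.31 against 8.54 and 8.05) overlapped. T and natural killer cell markers were near background, and 3 of 16 lay lower, a share near the 16% of all genes. Among the 3 were Foxp3, the factor of regulatory T cells (3.28 and 3.04 against 2.86 and 2.70), and Nkg7 (2.95 and 3.02 against 2.66 and 2.68).

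Epithelial markers as a whole did not separate. Among all genes 15% lay higher and 16% lower. General epithelial genes had a median of -0.05, with 1 of 13 higher and 3 lower, mature colonocyte genes 0.03 with 0 of 13 higher and 1 lower, and goblet cell genes -0.04 with 2 of 16 higher and 3 lower. Krt18, a keratin of simple epithelia, had 8.15 and 7.81 in WT and 7.57 and 7.45 in KO, and Krt8, its partner, 10.95 and 10.86 against 10.80 and 10.75. Lgals4, a lectin that organises apical membranes, went the other way with 11.54 and 11.73 against 11.95 and 11.99. The goblet cell products Fcgbp (10.79 and 10.83 against 10.67 and 10.64) and Zg16 (11.13 and 11.17 against 11.06 and 10.95) lay slightly lower, whereas Muc2 (12.17 and 12.12 against 12.18 and 11.96) overlapped. Colonocyte genes varied with the array titled with prebiotics in both genotypes, as for Slc26a3, the chloride-bicarbonate exchanger, with 11.06 and 11.68 in WT and 11.19 and 11.72 in KO.

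Of the genes that stratified or injured epithelia express, Sprr1a and Sfn had wide gaps on the lower side. Sprr1a, a precursor of the cornified envelope, had 7.90 and 8.74 in WT and 7.35 and 7.48 in KO (difference -0.91). Sfn, the adaptor protein stratifin, had 4.68 and 4.76 against 3.73 and 4.14 (difference -0.79), and Clu, clusterin, 5.52 and 5.63 against 5.32 and 4.52 (difference -0.66, gap -0.20). Anxa1, a calcium-dependent membrane-binding annexin, had 6.41 and 6.84 against 6.23 and 6.16 (difference -0.43, gap -0.19). Of 19 measured genes of this list 6 lay lower and 2 higher (16% and 15% of all genes). Only 8 of the 19 passed the background mark, and the median was -0.09. It was -0.01 without the KO prebiotic array and -0.17 without the other KO array. With a filter at the 75th percentile, which leaves out the members at low levels, it was -0.54. That filter keeps a gene that is high on any array and so favours genes high in a single genotype. The value of -0.54 is therefore no better a measure than -0.09. Krt6a, one of the higher members, and Tgm1, one of the lower, stayed below 3.0 on every array. S100a14, a calcium-binding protein of epithelia outside this list, had a gap of -0.41, with 4.40 and 4.28 against 3.87 and 3.62.

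Of 26 cell cycle genes 8 lay lower and 1 higher (16% and 15% of all genes), with a median of -0.15. It was -0.03 without the KO prebiotic array, -0.05 without the WT array titled without prebiotics and -0.23 without the KO array without prebiotics. Cdc20, which activates the anaphase-promoting complex, had 5.94 and 6.31 in WT and 5.73 and 5.61 in KO (difference -0.45). Plk1, a mitotic kinase, had 6.88 and 7.22 against 6.49 and 6.74 (difference -0.44). No gene of this list had a wide gap. Cdc6, which loads the replicative helicase, was the higher member with 3.22 and 2.94 against 3.33 and 3.49, while Mki67 (8.96 and 8.68 against 8.75 and 8.69) and Pcna overlapped.

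Of the lipid synthesis genes, some lay slightly lower in KO. The liver and gut raise cholesterol synthesis through SREBP2 when cell sterol is low, and fatty acid synthesis through SREBP1. Of 19 genes of cholesterol synthesis 8 lay lower (16% of all genes did) and 1 higher, with a median of -0.13. It was -0.07 both without the WT array titled with prebiotics and without the KO array without prebiotics. Fdps, which makes farnesyl diphosphate, had 6.99 and 6.93 in WT and 6.66 and 6.61 in KO, the only wide gap of the list (difference -0.32). Pmvk, the phosphomevalonate kinase, had 5.16 and 5.27 against 4.68 and 5.0 (difference -0.37), and Hmgcs1, the HMG-CoA synthase of the pathway, 9.41 and 9.50 against 9.22 and 9.30 (difference -0.20). None of these 3 genes overlapped between genotypes. Sqle (7.62 and 7.63 against 7.57 and 7.72), Msmo1 and Sc5d overlapped, and Stard4, a sterol carrier, lay higher with 5.95 and 5.82 against 6.14 and 6.15.

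Of 17 genes of fatty acid synthesis, desaturation and elongation, 7 lay lower (16% of all genes did) and 0 higher, with a median of -0.13. It was -0.08 without the WT array titled without prebiotics and -0.25 without the KO array without prebiotics. None of the 17 had a wide gap, and Elovl2, one of the lower members, stayed below 3.0 on every array. Elovl5, which elongates polyunsaturated fatty acids, had 7.83 and 7.81 in WT and 7.56 and 7.57 in KO (difference -0.26, gap -0.24). Fads2, a desaturase of polyunsaturated fatty acids, had 8.87 and 9.19 against 8.82 and 8.64 (difference -0.30), and Fads1, another such desaturase, 8.33 and 8.21 against 8.22 and 7.86 with overlap. Thrsp, a regulator of lipogenesis, had 3.78 and 3.49 against 3.33 and 3.33. Fasn (8.70 and 8.65 against 8.52 and 8.57) and Srebf1 (4.64 and 4.47 against 4.41 and 4.37) lay lower, with differences of -0.13 and -0.16, and Scd1 overlapped.

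Among 18 apolipoproteins, lipoprotein receptors and related genes, Apoe included, 4 lay higher and 3 lower (15% and 16% of all genes). The median was 0.03. Lrp1, a receptor for apoE-bearing remnants, had 7.77 and 7.83 in WT and 7.95 and 8.0 in KO. Lrp8, a receptor for apoE and reelin, had 3.90 and 3.50 against 3.31 and 3.46. Apob, the structural protein of chylomicrons, overlapped (9.80 and 10.01 against 9.68 and 10.01), as did Apoa1, Apoa4 and Apoc2. Of 10 liver X receptor targets 3 lay higher and 1 lower, with a median of 0.01. Beside Pltp, the cholesterol exporter Abca1 lay higher with 4.38 and 4.03 against 4.62 and 4.42, and Abcg1, Abcg5 and Abcg8 stayed near background and overlapped.

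Some large differences between the genotype means came from 1 array. Of 11 genes at least 2-fold higher in KO, 6 separated. The other 5 were Hspa1a, Hspa1b and the alpha-defensins Defa21, Defa22 and Defa24, chosen here after their values were seen. Defa21 had 3.37 and 2.98 in WT and 3.08 and 8.18 in KO, so its difference of 2.45 rests on the KO prebiotic array, without which it was -0.10. Alpha-defensin genes are near-identical copies, and which of them gave the signal is uncertain. Whether the tissue sampled for the KO prebiotic array differed from that of the other arrays was not tested. Of 6 genes at least 2-fold lower, 5 separated: Rnu3a, Slc1a5, Acot1, Cd79a and Apoe. Rnu3a, a small nucleolar RNA, had 9.06 and 6.66 against 6.44 and 5.76, and Acot1, a cytosolic acyl-CoA thioesterase, 5.47 and 4.08 against 3.99 and 3.41. For both, the WT arrays differed from each other by more than the gap between genotypes.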

How the data were processed

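The authors deposited log2 values made with Affymetrix Expression Console and RMA, per the submitters' processing notes; the base of the logarithm is that of RMA, and the genome build is not given in the sources used here. Of 41345 probe sets, the platform annotation gave 1 gene symbol to 23521, several to 1814 and none to 16010, and only the first kind was used. For the 1082 genes with more than 1 probe set, the one with the highest mean stood for the gene. Gene order and promoters came from RefSeq (GRCm38.p6), which held 99.2% of the gene identifiers.

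KO minus WT was fitted in limma 3.58.1 (R 4.3.3; lmFit, eBayes with trend, two-sided, Benjamini-Hochberg over 13081 genes) and checked on simulated data. The pools of a genotype were on different diets, so they are not replicates, and SEs and p-values measure only the spread between these 4 arrays. Where diet was not fitted, that spread holds the diet difference within each genotype. The number of arrays limits the precision. List summaries use every measured member.

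Named were Apoe, the 15 widest gaps each way, called genes, up to 6 separated members per list with the largest differences and members against their list, and wide gaps within 20 places of Apoe. Predicted genes, Mir and Snor genes, chemosensory receptors and segments of antigen receptors were counted, not named. The genes and lists were chosen with earlier results of these data known. Alternatives were other filters, the mean over probe sets, cyclic loess, centring on the median, eBayes without trend, diet as a block, a gap of 0.5 and leaving out each array; chosen after seeing the data were lists without chromosome 7.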

Additional observations from a re-analysis of the deposited data

Results flagged for a closer look

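For 7 gene lists the median of KO minus WT, with arrays paired by diet as titled, had opposite signs in the diets. Each value is the median with prebiotics minus that without, on the log2 scale. It was -0.10 for chemokines, -0.18 for T and natural killer cell markers, -0.17 for stratified and stress-induced epithelial genes and 0.13 for apolipoproteins and lipoprotein receptors. For general epithelium it was 0.12, for goblet cells and mucus -0.09 and for endothelium -0.14. Each diet has 1 array per genotype, so these differences between diets were not tested, and they rest on the titles of the WT arrays.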

How the results depend on the processing

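No setting over all 4 arrays without a block called a gene in limma. Diet as titled as a block called 8 higher and 4 lower. Leaving out 1 array gave 0 to 5 called higher and 0 to 1 lower; the calls came without the KO array without prebiotics, in a fit that assumes the lone KO array to vary like the WT pair. Separated genes numbered 3322 higher and 3545 lower without the expression filter, and 1038 and 698 with a filter at the 75th percentile, because other numbers of genes were tested. The latter filter left 79 wide gaps higher and 39 lower, and a gap of 0.5 left 16 and 8. Leaving out 1 array, which leaves 2 differences in place of 4, gave 3997 to 4906 separated genes higher and 3689 to 4357 lower, and 519 to 861 and 395 to 602 wide gaps. Cyclic loess gave 1970 separated genes higher and 1973 lower, and centring on the median 2305 and 1718. Of 156 genes named by rule, by a call or by a 2-fold difference, 152 kept their sign in every setting in which they were tested; for separated genes this follows from the separation when an array is left out. Without the KO prebiotic array the sign turned for the other 4, whose differences with 1 array left out ran from -0.135 to 2.88 (Hspa1b), -0.10 to 5.0 (Defa21), -0.36 to 4.66 (Defa22) and -0.21 to 3.33 (Defa24). Of 28 lists described, 19 kept the sign of their median, and 9 did not: apolipoproteins, collagens, endothelium, enteric glia, general epithelium, goblet cells, MHC class II (-0.21 to 0.01), mature colonocytes (-0.18 to 0.22) and T cells. The range was 0.14 to 0.41 for fibroblasts, 0.16 to 0.47 for smooth muscle, 0.11 to 0.29 for macrophages and 0.04 to 0.34 for the clock. For B cells it was -0.87 to -0.09. The -0.87 came with the filter at the 75th percentile, which left only Cd79a and Cd37 of that list, both on chromosome 7. With 1 array left out the B cell median ran from -0.47 to -0.09. No paired analysis by replicate number was possible because the labels give no replicate numbers; the block on diet as titled, above, pairs arrays by diet only.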
